A study of Mus musculus with 5375 samples.

Results

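The proteasome degrades ubiquitin-tagged proteins, and the peptides it releases are the main supply of the MHC class I pathway. Its proteolytic work is done inside a barrel, the 20S core, by Psmb6 (caspase-like), Psmb7 (trypsin-like) and Psmb5 (chymotrypsin-like), the constitutive catalytic subunits. Interferon-γ is known to induce a replacement for each of them, Psmb9 (LMP2) for Psmb6, Psmb10 (MECL1) for Psmb7 and Psmb8 (LMP7) for Psmb5, and a core assembled with these is called the immunoproteasome. Psme1 and Psme2 (PA28α and PA28β) form an activator ring that caps the core and is also inducible by interferon-γ. These 8 genes, named as a list, were followed here out of 35299 genes in the tumor cell (TC) tables and 35308 in the endothelial cell (EC) tables, and all 8 passed the filter on low counts in both. They were chosen by name with their CPM and pair ratios in these libraries already known, so their levels and differences are given as a description. Counts of calls among them are printed beside the share over all genes and serve as no test of the list.

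The cells came from wild-type female BALB/c mice, young adults, given 2 tail vein injections, with a short break between them, of dye-stained, GFP-expressing 4T1 cells, a BALB/c mammary carcinoma line. On day 1.5 an intravenous antibody to H-2Kd, itself an MHC class I molecule, separated stained intravascular TCs from unstained extravascular TCs, and 4 mice (m5 to m8) gave both gates. On day 3.5 TCs that retained the dye were gated as latent (4 mice, m9 to m12) while TCs whose dye was diluted formed the proliferative gate; these gates enrich for the named state and are not pure. The deposited annotation names a single mouse, m12, for every proliferative cell, whereas the labels and the study's methods give 4 replicates of that gate. As the cells could not be assigned to those replicates, the gate is 1 pool here, and how many mice it holds is uncertain; the TCs from culture are 1 pool as well. ECs from lung were sorted as CD31+ cells from uninjected control mice (day 0, 4 mice) and from injected mice on day 1.5 (3 mice) and day 3.5 (3 mice). The day 0 mice were sorted on both later days, replicates 1 and 2 on day 1.5 and replicates 3 and 4 on day 3.5. Each TC gate was sequenced on a lane of its own, so gate and lane cannot be told apart.

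Counts of the cells in the authors' deposited filtered tables, 2479 ECs and 1566 TCs (a TC number slightly above the one in the study's text), were summed per mouse and gate into 24 libraries, and levels are given as CPM, the count scaled to the library's total. A library held between 31.9 and 163 M estimated counts. The defining markers were where the labels put them. Summed, 5 endothelial markers reached between 5973 and 10334 CPM in EC libraries and at most 30.7 CPM in TC libraries, and 5 markers of carcinoma cells (Krt8, Krt18, Krt7, Epcam and Krt14) summed to between 2642 and 6338 CPM in TC libraries and at most 17.5 CPM in EC libraries. A list of 10 immune markers stood apart in 2 libraries, latent replicates 1 and 4, at 262 and 183 CPM, with Lyz2 the highest at 221 and 128 CPM, Ptprc at 2.26 and 1.86 CPM and Nkg7 at 0 in both; the other TC libraries held at most 14.2 CPM and the EC libraries at most 50.8 CPM. The members' log2 differences, ratios and shares of latent TCs, and the counts of calls, are therefore also given without those 2.

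The files give gene symbols only. In the GENCODE M21 annotation of GRCm38, the build named in the submitters' processing notes, Psmb8 lies on chromosome 17 at 34197721 to 34201454 (plus strand) and Psmb9 on chromosome 17 at 34181987 to 34187764 (minus strand), both inside the MHC, and Psmb9 overlaps its divergent neighbor Tap1. Psmb10 lies on chromosome 8 at 105935735 to 105938444 (minus strand). The activator pair is close together on chromosome 14, Psme1 at 55578123 to 55581529 (plus strand) and Psme2 at 55587441 to 55591113 (minus strand). Psmb5 is on chromosome 14 at 54614119 to 54618022 (minus strand), Psmb6 on chromosome 11 at 70525367 to 70527858 (plus strand) and Psmb7 on chromosome 2 at 38588036 to 38644087 (minus strand). Psmb8 and Psmb10 each overlap an annotated antisense gene and Psme1 overlaps Emc9. Psmb7 overlaps Nek6, the processed pseudogene Gm13586 and the microRNA gene Gm27634, and Psmb5 overlaps the microRNA gene Mir686. Strand-specific counting is not stated, so reads of overlapping genes cannot be told apart. The retrocopy Psme2b, which could share reads with Psme2, stood at 1.56 to 10.5 CPM in TC libraries and 8.61 to 73.9 CPM in EC libraries. The processed copies of Psmb5, Psmb6 and Psmb7 that are listed stood at 0.723 CPM or less.

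RefSeq promoter windows on GRCm38.p6, from 250 bases before to 50 bases after a transcript start, were found for 7 of the 8 genes (Psmb7 had none) and were searched on both strands. The motifs were an interferon-stimulated response element core (GAAANNGAAA), a gamma-activated site (TTCNNNGAA) and an antioxidant response element core (TGACNNNGC), which are held by 3.44%, 8.30% and 12.4% of all 32851 windows. Exact letters were found in 4 windows and are shown with up to 10 bases on each side, the match in capitals, because they are all the matches found. Psmb8 held a gamma-activated site beginning 97 bases before the RefSeq start (17:34198088-34198116, plus strand), inside an exon of Psmb8 in GENCODE, Psme1 a response element core just past the start (14:55578493-55578522, plus strand, motif on the opposite strand), inside a Psme1 exon, and Psmb5 (14:54618024-54618052, minus strand) and Psmb6 (11:70525338-70525366, plus strand) an antioxidant element core each.

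Psmb8: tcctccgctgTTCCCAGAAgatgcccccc

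Psme1: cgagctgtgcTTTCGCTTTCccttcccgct

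Psmb5: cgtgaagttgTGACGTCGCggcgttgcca

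Psmb6: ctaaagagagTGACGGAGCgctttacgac

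The windows of Psmb9, Psmb10 and Psme2 held none of these letters, and neither did the window of Tap1, which starts from the same stretch as Psmb9. A match is a description of letters and not a bound site.

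In TCs the 3 immunosubunits were lowest in culture and in the extravascular gate, higher in the intravascular gate, and highest in the latent gate. Psmb8 stood at 75.8 CPM in the culture pool. It was at 173, 197, 216 and 202 CPM in the intravascular libraries of mice m5 to m8. In the extravascular libraries of the same mice it was at 101, 102, 72.3 and 101 CPM. The 2 gates did not overlap, and the culture pool fell inside the extravascular range. The latent libraries (m9 to m12) held 431, 371, 389 and 395 CPM of Psmb8 and the proliferative pool 263 CPM. Every latent library thus stood above the proliferative pool, and that pool above every intravascular library. On the log2 scale, from the fit across all genes with TMM scaling (edgeR), Psmb8 was −1.14 ± 0.13 (SE, n = 4 and 4) in extravascular relative to intravascular TCs. In latent relative to extravascular TCs it was 1.93 ± 0.13 (n = 4 and 4). The extravascular libraries are shared by both comparisons. TMM factors were 0.90 to 0.95 in intravascular, 0.95 to 0.99 in extravascular and 1.04 to 1.14 in latent libraries, so fitted differences lie below those of the printed CPM, which matters most for the constitutive subunits; overlap, ratios within a mouse and levels use unscaled CPM.

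Psmb9 followed the same order at much lower levels. It was at 6.93 CPM in culture, and at 17.5, 23.4, 15.0 and 19 CPM in intravascular TCs. In extravascular TCs it was at 7.96, 14.9, 11.9 and 6.86 CPM, so the gates lay next to each other without overlap, 14.9 CPM being the highest extravascular and 15.0 CPM the lowest intravascular library. Latent TCs held 46.6, 47.3, 41.8 and 61.5 CPM and the proliferative pool 40.7 CPM. The pool lay just under the lowest latent library. The log2 difference was −0.92 ± 0.25 for extravascular relative to intravascular TCs and 2.11 ± 0.26 for latent relative to extravascular TCs.

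On the log2 scale, Psmb10 was the immunosubunit with the smallest differences between gates. It stood at 94.0 CPM in culture, below every library from lung. Intravascular libraries held 268, 301, 306 and 290 CPM and extravascular libraries 209, 211, 181 and 197 CPM. Latent libraries held 330, 360, 386 and 355 CPM, and the proliferative pool 324 CPM. The gates taken from mice did not overlap one another in Psmb10. The log2 difference was −0.62 ± 0.09 in extravascular relative to intravascular TCs and 0.70 ± 0.09 in latent relative to extravascular TCs.

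Of the activator subunits, Psme1 was at 190 CPM in culture, 239, 250, 283 and 257 CPM in intravascular and 191, 258, 178 and 200 CPM in extravascular libraries. These 2 gates overlapped through extravascular replicate 2 (m6). Latent libraries reached 485, 412, 380 and 439 CPM and the proliferative pool 365 CPM, above every library of day 1.5. Psme2 was at 292 CPM in culture, which was lower than in any library from lung. It was at 731, 666, 782 and 651 CPM in intravascular, 557, 537, 580 and 494 CPM in extravascular and 824, 729, 751 and 817 CPM in latent libraries, with 663 CPM in the proliferative pool. Latent and intravascular libraries overlapped in Psme2, whereas extravascular libraries lay below both. The log2 differences were −0.39 ± 0.13 for Psme1 and −0.46 ± 0.09 for Psme2 in extravascular relative to intravascular TCs, and 0.92 ± 0.13 and 0.39 ± 0.09 in latent relative to extravascular TCs.

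The constitutive catalytic subunits had smaller differences between gates than the immunosubunits they pair with, in both comparisons. Psmb5 was at 436 CPM in culture, 424 ± 24.5 CPM (SD, n = 4) in intravascular, 367 ± 33.8 in extravascular and 431 ± 15.1 in latent TCs, and 390 CPM in the proliferative pool. Psmb6 was at 677 CPM in culture, 875 ± 36.6 in intravascular, 710 ± 40.6 in extravascular and 860 ± 56.5 CPM in latent TCs, and 808 CPM in the proliferative pool. The latent and intravascular libraries overlapped in both. Psmb7 was at 135 CPM in culture, 138 ± 20.3 in intravascular and 142 ± 15.8 CPM in extravascular TCs, which overlapped. It was at 194, 238, 234 and 213 CPM in latent libraries and 223 CPM in the proliferative pool, above all the libraries of day 1.5. In extravascular relative to intravascular TCs the log2 differences were −0.29 ± 0.09 (Psmb5), −0.38 ± 0.07 (Psmb6) and −0.04 ± 0.13 (Psmb7, of which the plain CPM mean was higher in extravascular TCs, and whose sign turned in 3 of 14 alternatives). In latent relative to extravascular TCs they were 0.09 ± 0.09, 0.14 ± 0.07 and 0.49 ± 0.13.

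**Figure D1:**
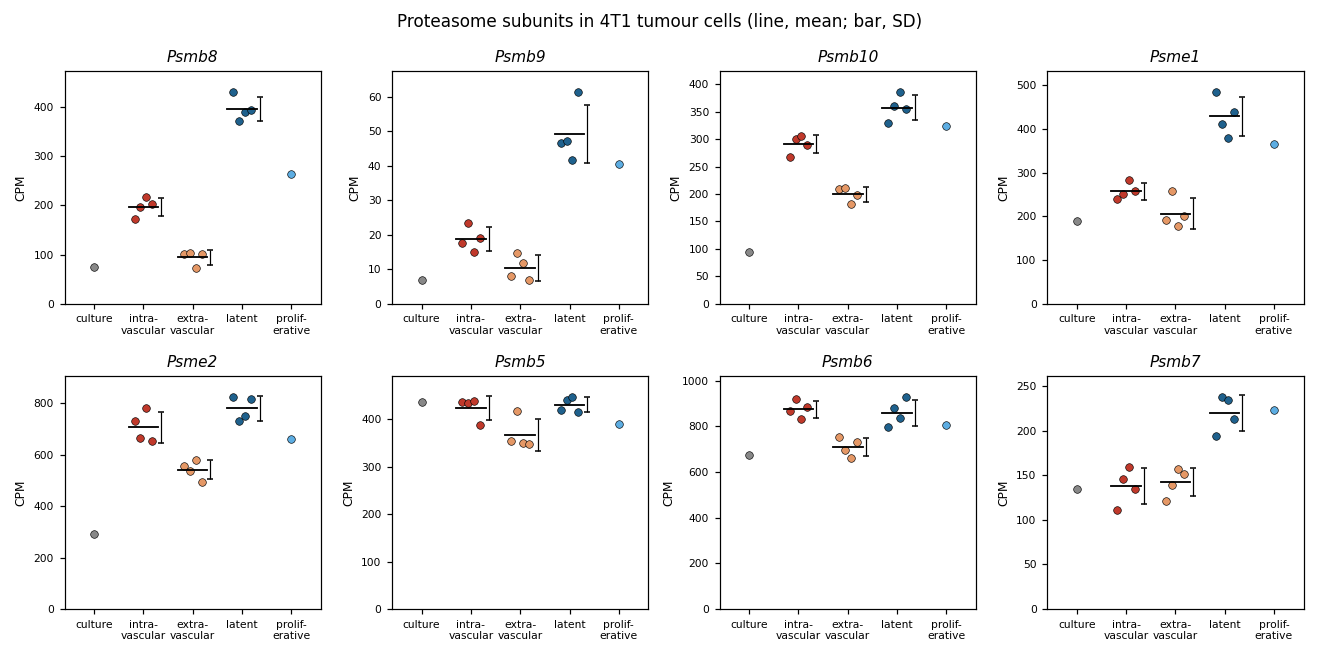
CPM of each of the 8 subunits (y axes, from 0) in the 5 TC groups (x axes); a point is 1 library of 1 mouse and gate or 1 pool, the line is the mean and the bar the SD of 4 libraries. Psmb8 sits at 72.3 to 102 CPM in extravascular, 173 to 216 in intravascular and 371 to 431 in latent libraries, while Psmb5 sits between 347 and 447 CPM in all of them.

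Counted over the 8 genes, 4 (Psmb8, Psmb10, Psme2 and Psmb6) passed an adjusted p of 0.05 as lower in extravascular TCs in edgeR's quasi-likelihood test, beside 0.535% of all 19249 genes tested that were called lower, 0.416% called higher and 0.951% called in either direction. The libraries of 5 of the 8 did not overlap and were lower, beside 3.12% of all genes (5.3% higher, 8.43% either way). The median log2 difference was −0.43 over the 8 and −0.01 over all genes. With the mouse as a block on the 8 libraries of day 1.5, 1 of the 8 was called (Psmb8), and 34 genes in all; without the block on the same 8 libraries 2 were (Psmb8 and Psmb10), and 63 genes in all. DESeq2 called 6 (adding Psmb9 and Psmb5), and 1432 genes in all. Without any one library between 1 and 4 of the 8 were called, Psmb8 each time, and between 8 and 518 genes in all. In latent relative to extravascular TCs, 6 of the 8 were called higher (all but Psmb5 and Psmb6), beside 3.6% of all genes, and 7 did not overlap and were higher, beside 10.4% (6.29% lower). The median was 0.60 over the 8 and 0.03 over all genes. Without latent replicates 1 and 4, 4 of the 8 were called (the immunosubunits and Psme1), and 816 genes in all. The same 4 members were called without latent replicate 4 alone. On leaving out single libraries between 4 and 6 members were called, these 4 each time, and between 1189 and 1465 genes in all. The Psmb7 call was lost without extravascular replicate 1 or 2 or latent replicate 2, 3 or 4, and the Psme2 call without extravascular replicate 4 or latent replicate 1 or 4. The rule that chose the genes drew on these contrasts, so nothing is read from the counts.

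Within the latent gate, replicates 1 and 4, the libraries with the most immune markers, also held the most Psmb8 (431 and 395 CPM), Psme1 (485 and 439 CPM) and Psme2 (824 and 817 CPM). Of Psmb10 (330 and 355 CPM), Psmb5 (420 and 416 CPM) and Psmb7 (194 and 213 CPM) they held less than replicates 2 and 3, and in Psmb9 and Psmb6 the pairs of replicates were interleaved. Replicates 2 and 3, with 8.83 and 7.64 CPM of immune markers, held 371 and 389 CPM of Psmb8, 412 and 380 CPM of Psme1, and 729 and 751 CPM of Psme2. Without replicates 1 and 4 the log2 difference of latent from extravascular TCs was 1.83 for Psmb8, 1.91 for Psmb9, 0.72 for Psmb10, 0.75 for Psme1, 0.27 for Psme2, 0.09 for Psmb5, 0.09 for Psmb6 and 0.55 for Psmb7. All but those of Psmb10, Psmb5 and Psmb7 were smaller than with the 4 libraries, and the part of immune cells in these values was not tested. The study's sort excluded CD45+ cells. Without the cells at 10 CPM or more of Ptprc, the CD45 gene, which removed 1 cell each from latent replicates 1 and 4, the same 6 members were called and Psmb8 differed by 1.94.

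Within a mouse, both day 1.5 gates can be set side by side. The log2 ratio of extravascular to intravascular CPM of Psmb8 was −0.77 in m5, −0.94 in m6, −1.58 in m7 and −0.99 in m8. Psmb9, Psmb10, Psme2, Psmb5 and Psmb6 were likewise lower in the extravascular gate in each of the 4 mice. Psme1 was lower in m5, m7 and m8 and stood at 0.04 in m6, and Psmb7 lay between −0.08 and 0.16. Psmb8 had the lowest value in m6 and m7, and Psmb9 in m5 (−1.14) and m8 (−1.47).

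**Figure D2:**
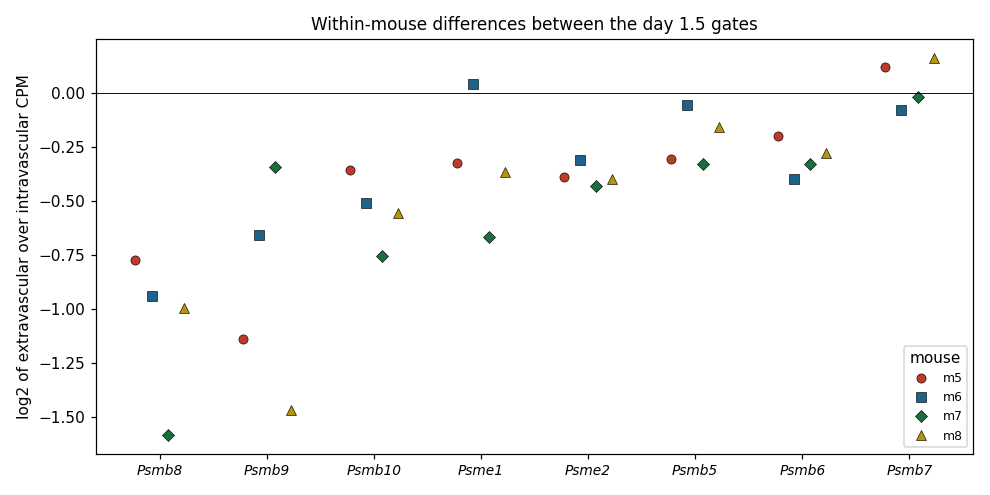
Log2 of extravascular over intravascular CPM (y axis) for the 8 subunits (x axis), with 1 point per mouse (m5 to m8) and a line at 0. All 4 points of Psmb8 lie between −1.58 and −0.77, and the points of Psmb7 lie on both sides of 0.

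Levels of different genes were compared per kilobase of the annotated principal transcript. Per kilobase, the share of Psmb8 in the sum of Psmb8 and Psmb5 was 8.76% in culture. It was 20.4% ± 1.91 (SD, n = 4) in intravascular, 12.4% ± 1.69 in extravascular and 33.7% ± 1.99 in latent TCs, and 27.1% in the proliferative pool. The ranges of the 4 lung gates did not overlap: 18.0 to 22.4%, 10.3 to 13.9% and 31.7 to 36.2% over libraries, with the pool between intravascular and latent. At the caspase-like position the constitutive mRNA dominated in every TC library, the share of Psmb9 in Psmb9 and Psmb6 being 0.601% in culture, 1.24% ± 0.178 in intravascular, 0.866% ± 0.334 in extravascular and 3.26% ± 0.385 in latent TCs, and 2.89% in the proliferative pool. At the trypsin-like position Psmb10 held 38.1% of the pair in culture, 65.2% ± 2.11 in intravascular, 55.4% ± 4.31 in extravascular and 59.0% ± 1.22 in latent TCs, and 56.3% in the proliferative pool. There the latent gate overlapped the extravascular gate, and Psmb7 was also higher in latent TCs. In latent replicates 2 and 3 alone the shares were 31.7% and 32.5% for Psmb8, 3.08% and 2.87% for Psmb9, and 57.3% and 59.3% for Psmb10. The 3 positions therefore differed in order: the latent gate had the highest share at the first 2, and the intravascular gate at the third.

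As log2 ratios of CPM, which need no length, Psmb8 to Psmb5 was −1.11 ± 0.17 in intravascular, −1.97 ± 0.23 in extravascular and −0.12 ± 0.13 in latent TCs. Psmb9 to Psmb6 was −5.56 ± 0.21, −6.16 ± 0.58 and −4.14 ± 0.17 in the same order, and here the day 1.5 gates overlapped through extravascular replicate 2. Psmb10 to Psmb7 was 1.09 ± 0.13, 0.49 ± 0.25 and 0.70 ± 0.07. Taken as differences, latent exceeded extravascular TCs by 1.85 for Psmb8 to Psmb5, 2.02 for Psmb9 to Psmb6 and 0.21 for Psmb10 to Psmb7 (0.11 without extravascular replicate 3), and by 1.75, 1.89 and 0.17 without latent replicates 1 and 4. Extravascular differed from intravascular TCs by −0.86, −0.60 and −0.59.

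**Figure D3:**
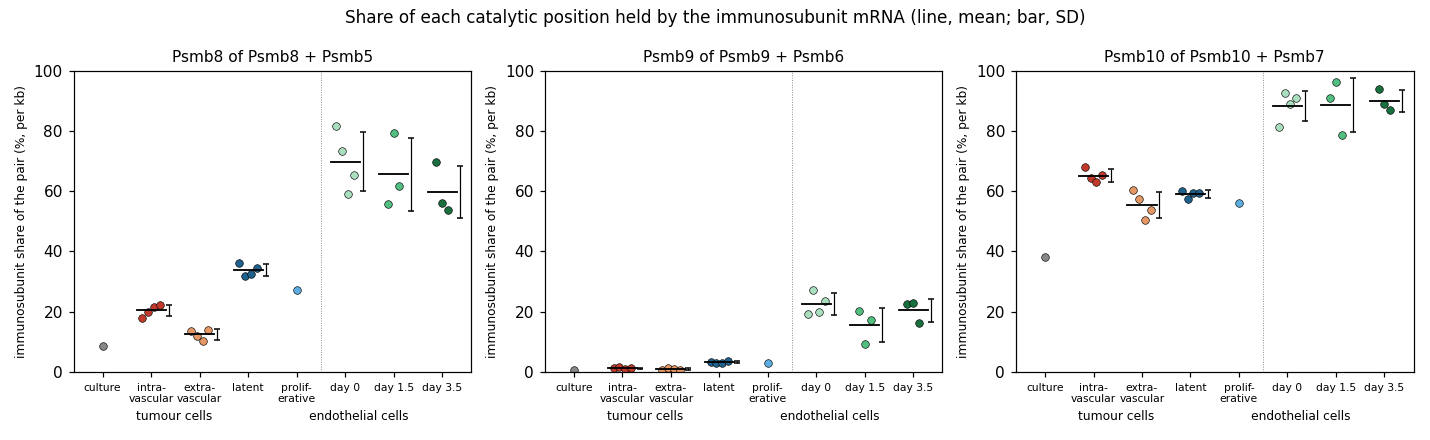
Share of the immunosubunit mRNA in its pair (y axis, percent of the summed CPM per kb) in the 5 TC groups and 3 EC days (x axis); a point is 1 library or pool, the line the mean and the bar the SD. Psmb8 holds 10.3 to 36.2% of its pair in TC libraries from mice and 53.7 to 81.7% in EC libraries; Psmb9 stays at 3.76% or less in TC libraries and between 9.38 and 27.2% in EC libraries.

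The share of cells with a read followed the levels only in part. After thinning each cell to 100000 reads (shallower cells were left out), Psmb8 was expected in 63.1% of cells from culture, 81.6% of intravascular, 54.6% of extravascular, 82.7% of latent and 82.2% of proliferative cells. Unthinned, the shares were 67.2%, 86.8%, 62.7%, 86.6% and 87.3%. Latent and intravascular cells thus had a read in nearly the same share of cells and differed in level: the median among cells with a read was 269 CPM in latent and 124 CPM in intravascular cells. Psmb9 was expected in 16.8%, 29.3%, 17.2%, 52.6% and 47.8% of thinned cells from culture and the intravascular, extravascular, latent and proliferative gates. Psmb10 was expected in 77.1%, 94.6%, 80.7%, 89.9% and 95.1%, so that fewer latent than intravascular cells had a read although its level was higher in latent TCs. All 3 immunosubunits had a read in 54 of 369 cells from culture (14.6%), 109 of 325 intravascular (33.5%), 52 of 306 extravascular (17.0%), 179 of 329 latent (54.4%) and 126 of 237 proliferative cells (53.2%), without thinning. The constitutive Psmb6 had a read in at least 99.3% of cells of every gate. Cells are not replicates, there were no molecular identifiers, and the shares are descriptions of these pools.

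The rest of the proteasome was followed as a further list, also drawn up with earlier results known. Of 43 further genes of the 20S core, the 19S cap, the other activators and the assembly chaperones, 42 were tested (Psma8, a testis form, was too low). In extravascular relative to intravascular TCs, 1 was lower (Psmb2, a non-catalytic core subunit, 921 ± 43.0 CPM in intravascular and 691 ± 75.4 in extravascular TCs, log2 −0.49 ± 0.09, edgeR adjusted p = 0.0305) and none higher, beside 0.535% of all genes called lower and 0.416% called higher. An unadjusted p under 0.05 was reached by 16 of the 42 and by 3382 of all 19249 genes. The Psmb2 call was lost when the fit held only the 8 libraries of day 1.5, with the mouse as a block and without, and on leaving out any single library but extravascular replicate 1. The median over the 42 was 0.03. Libraries of 8 of the 42 did not overlap and were lower, beside 3.12% of all genes, and those of 1 were higher, beside 5.3%. By sign, 0 of the 5 other core β subunits had a difference above 0 (median −0.36, from −0.49 to −0.23, 1 called) and 16 of 19 genes of the 19S cap did (median 0.15, 0 called); the difference between these groups was not tested.

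In latent relative to extravascular TCs the median of the 42 genes was −0.03. Libraries of 10 of the 42 did not overlap and were higher, beside 10.4% of all genes, and those of 1 were lower, beside 6.29%. By edgeR 1 gene was called higher, Psmb4, a core subunit (966 ± 64.2 CPM in latent and 628 ± 46.0 in extravascular TCs, log2 0.49 ± 0.08, adjusted p = 0.00227). All genes called higher made up 3.6% and those called lower 4.97%. A further 2 of the list, both of the 19S cap, were called lower: Sem1 (540 ± 24.6 and 665 ± 49.7 CPM, log2 −0.43 ± 0.08, edgeR adjusted p = 0.00307) and Psmd1 (65.6 ± 12.8 and 87.4 ± 15.1 CPM, log2 −0.56 ± 0.16, adjusted p = 0.0465). The proliferative pool held 925 CPM of Psmb4, 522 CPM of Sem1 and 86.6 CPM of Psmd1. Without latent replicates 1 and 4 the calls of Psmb4 and Sem1 were kept and that of Psmd1 was lost. The Psmd1 call was also lost with no filter, without cells above 5% mitochondrial reads, and on leaving out any single library but extravascular replicate 1 or latent replicate 2. The 42 differences ran from −0.56 to 0.49.

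Of the related subunits and helpers named by rule, none passed the adjusted p of edgeR in either TC comparison. Psmb11, the catalytic subunit of the thymic proteasome, was at 1.54 CPM or less in every TC library. Psme3, the activator of the nucleus, was at 50.3 ± 3.32 CPM in latent and 63.6 ± 8.99 CPM in extravascular TCs (log2 −0.48 ± 0.15, adjusted p = 0.0659), and Psme4, another nuclear activator, at 19.1 ± 4.97 and 16.4 ± 0.81 CPM (log2 0.08 ± 0.20, adjusted p = 0.854). Pomp, the chaperone that matures both kinds of core, was at 402 CPM in culture and at 791 ± 21.8 CPM in intravascular, 652 ± 65.1 CPM in extravascular and 605 ± 48.3 CPM in latent TCs, with edgeR adjusted p = 0.0748 between the day 1.5 gates and 0.127 between latent and extravascular TCs. DESeq2 called Psme3 lower in latent TCs and Pomp lower in extravascular TCs, and edgeR called Psme3 without extravascular replicate 4 and without cells above 5% mitochondrial reads, and Pomp without extravascular replicate 1.

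**Figure D4:**
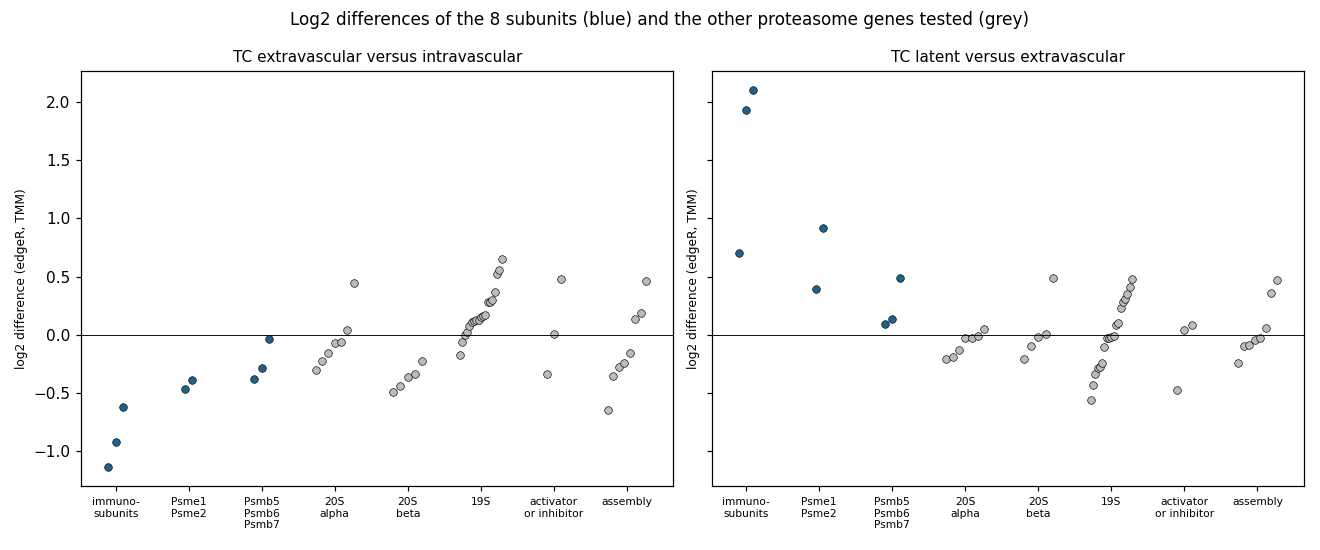
Log2 differences from the edgeR fit (y axes) for the 8 subunits (blue) and the 42 other proteasome genes tested (grey), by group (x axes), in extravascular relative to intravascular TCs (left) and latent relative to extravascular TCs (right); a point is 1 gene. Grey points run from −0.65 to 0.65 on the left and from −0.56 to 0.49 on the right, with Psmb8 at −1.14 and 1.93.

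Genes known to respond to interferon were examined as a list of 30, all of which were tested. Between the day 1.5 gates 1 was lower in extravascular TCs, Xaf1 (67.1 ± 8.95 CPM in intravascular and 42.6 ± 4.85 in extravascular TCs, log2 −0.73 ± 0.15, edgeR adjusted p = 0.0435). None was higher, and of all genes 0.535% were called lower and 0.416% higher. The Xaf1 call was lost in the fit of the 8 libraries of day 1.5, with or without the mouse as a block, and on leaving out any library but extravascular replicate 1. The median over the list was −0.32. In latent relative to extravascular TCs 5 were higher and none lower, beside the 3.6% of all genes called higher, and the median was 0.72. Irf9, a transcription factor of the type I interferon response, was at 10.7 ± 3.15 and 2.14 ± 0.39 CPM (log2 2.17 ± 0.33, edgeR adjusted p = 0.00116). Gbp2, a guanylate-binding protein, was at 14.8 ± 5.55 and 3.43 ± 1.68 CPM (1.96 ± 0.38, adjusted p = 0.0061). Ifi35 was at 168 ± 15.3 and 76.8 ± 5.78 CPM (0.99 ± 0.14, adjusted p = 0.000805), and its binding partner Nmi at 66.7 ± 8.66 and 37.1 ± 7.79 CPM (0.70 ± 0.17, adjusted p = 0.0239). Irf1, a transcription factor that acts on the Psmb9 and Tap1 promoter, was at 50.6 ± 4.80 and 23.8 ± 7.82 CPM (0.94 ± 0.22, adjusted p = 0.0182). The proliferative pool held 5.90 CPM of Irf9, 14.7 of Gbp2, 131 of Ifi35, 71.7 of Nmi and 58.7 of Irf1. Each of these pool values was above the extravascular mean, and those of Nmi and Irf1 were above the latent mean.

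The size of the count depended on libraries of both gates. It was 13 without extravascular replicate 2, 3 without extravascular replicate 3, and 2 (Irf9 and Ifi35) without latent replicates 1 and 4. The Irf1 call was also lost without extravascular replicate 3, without latent replicate 4 alone, and without cells above 5% mitochondrial reads. That of Nmi was also lost without extravascular replicate 1 or 3 or latent replicate 1 or 3. Of 13 regulators and receptors of the pathway, Irf1 and Irf9 were called higher in latent TCs, beside 3.6% of all genes, and none lower, beside 4.97%. Nlrc5, the MHC class I transactivator, was at 5.39 ± 2.08 and 3.03 ± 1.96 CPM (log2 0.67 ± 0.52, edgeR adjusted p = 0.482). Between the day 1.5 gates Irf1 was at 23.8 ± 7.82 CPM in extravascular and 22.5 ± 3.87 CPM in intravascular TCs (log2 0.01 ± 0.22, edgeR adjusted p = 0.996). The log2 difference of Nlrc5 was −0.19 ± 0.52 (edgeR adjusted p = 0.901), and no regulator was called, beside 0.951% of all genes in either direction. The 4 peptide loading genes Tap1, Tap2, Tapbp and B2m passed the test in neither TC comparison, beside that 0.951% between the day 1.5 gates and 8.57% in latent TCs. Tap1, which shares its promoter with Psmb9, was at 2.75 ± 2.08 CPM in extravascular and 5.76 ± 1.60 CPM in latent TCs (log2 0.91 ± 0.75, edgeR adjusted p = 0.511). The proliferative pool held 10.2 CPM of Tap1 and 5.06 CPM of Nlrc5.

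Across the 12 TC libraries of the intravascular, extravascular and latent gates, the other 7 members correlated with Psmb8 on the log2(CPM + 1) scale with r between 0.72 (Psmb7) and 0.97 (Psmb10). Libraries of a gate share a lane, and these correlations hold the differences between gates. With each gate centered on its own mean the values ran from −0.25 (Psmb9) to 0.67 (Psme1). Among 6797 genes with a mean of at least 10 CPM outside the 8, the 5 most like the mean of the 3 immunosubunits were Atg101, a factor that starts autophagy (r = 0.964, n = 12), the ubiquitin gene Ubb (0.963), the corepressor Sin3b (0.960), Gm1821 (0.957) and Gm8797 (0.955). Gm1821 is listed by RefSeq as a copy of Ubb, so its reads and those of Ubb may have been split by the counting.

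In ECs the immunosubunits were, per kilobase, the more abundant member of the pair at 2 of the 3 positions on every day, and the days overlapped. Psmb8 was at 685, 706, 517 and 659 CPM on day 0, 417, 645 and 543 CPM on day 1.5 and 584, 532 and 514 CPM on day 3.5. Psmb9 was at 273, 421, 244 and 293 CPM on day 0, 273, 138 and 215 CPM on day 1.5 and 322, 281 and 175 CPM on day 3.5. Psmb10 was at 440, 733, 503 and 621 CPM, then 709, 628 and 408 CPM, then 768, 620 and 566 CPM. In each of these the range of a day lay partly inside that of the next.

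Psme1 and Psme2 in ECs lay between 352 and 591 CPM and between 528 and 852 CPM over all 10 libraries. Psmb6 lay between 538 and 786 CPM, and the other constitutive subunits were lower and more variable, Psmb5 between 84.9 and 245 CPM and Psmb7 between 22.0 and 98.2 CPM. Day 1.5 replicate 2 held the lowest values of Psmb9, Psme1 and Psmb7, and it also had the highest sum of alveolar epithelial markers, 116 CPM against at most 42.2 CPM in the other EC libraries; its part in these values was not tested.

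None of the 8 genes was called between days, beside 0% of the 17585 genes tested in each of the 3 comparisons by edgeR (1422, 798 and 1541 genes had an unadjusted p under 0.05 for day 1.5 against day 0, day 3.5 against day 1.5 and day 3.5 against day 0). DESeq2 called 374, 137 and 506 genes and likewise none of the 8. By CPM, no member separated the libraries of any 2 days, beside 7.49%, 9.7% and 7.88% of all genes that did. Lower on the later day were 2.77%, 4.99% and 3.03% of all genes, and higher were 4.72%, 4.7% and 4.86%. The log2 differences from day 0 were −0.33 ± 0.19 on day 1.5 and −0.31 ± 0.19 on day 3.5 for Psmb8 (SE, n = 4 and 3), −0.62 ± 0.31 and −0.31 ± 0.31 for Psmb9, and −0.04 ± 0.25 and 0.11 ± 0.25 for Psmb10. Those of Psmb8 and Psmb9 kept their sign in all 13 alternatives, while that of Psmb10 turned in 3 for day 1.5 and in 1 for day 3.5. After thinning, the expected share of ECs with a read of Psmb8 was 49.2% on day 0, 55.2% on day 1.5 and 62.7% on day 3.5. It was 36.1%, 36.8% and 46.5% for Psmb9 and 43.6%, 50.5% and 55.3% for Psmb10. The constitutive subunits also had larger shares on day 3.5 than on day 0, and the median of genes detected per cell was 2208, 2589 and 2693. Cells are not replicates.

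**Figure D5:**
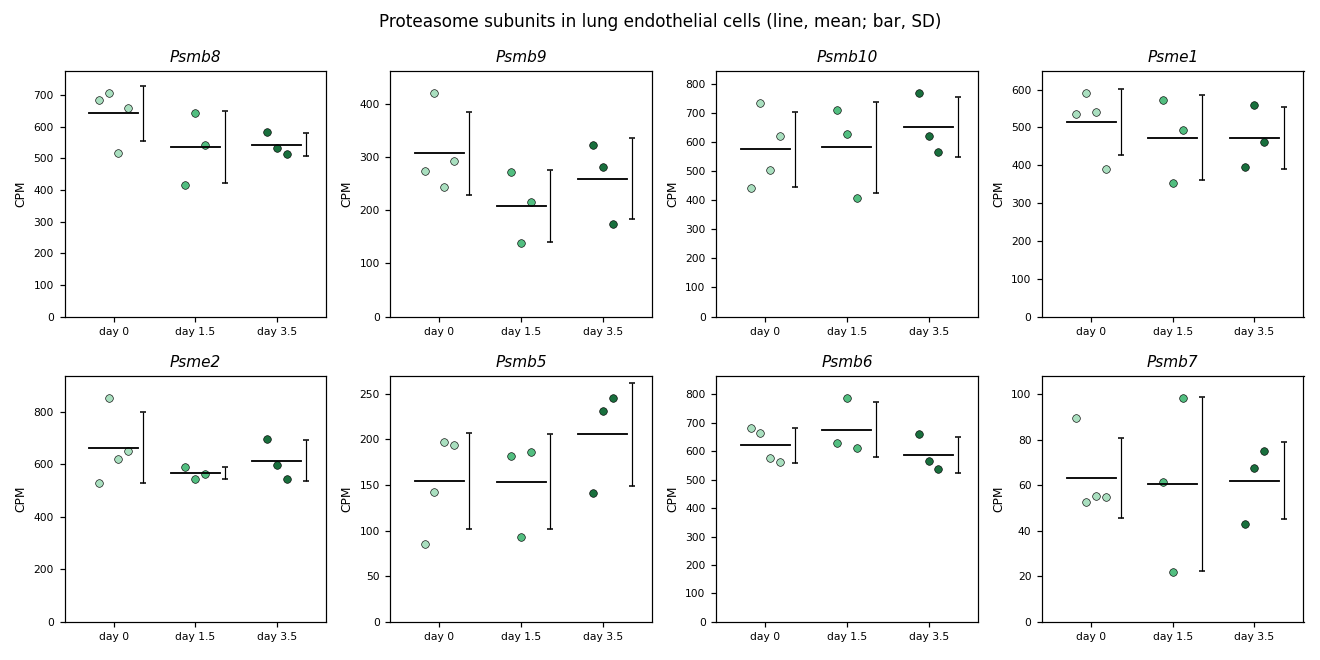
CPM of the 8 subunits (y axes, from 0) in ECs on the 3 days (x axes); a point is 1 mouse, the line the mean and the bar the SD. Psmb8 lies between 417 and 706 CPM and Psmb7 between 22.0 and 98.2 CPM, with overlapping days in every panel.

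Per kilobase, Psmb8 held 69.8% ± 9.78 of its pair with Psmb5 on day 0 (n = 4), 65.6% ± 12.2 on day 1.5 and 59.8% ± 8.57 on day 3.5 (n = 3 each), and Psmb10 held 88.4% ± 4.95, 88.6% ± 9.04 and 90.0% ± 3.65 of its pair with Psmb7. Psmb9 held 22.5% ± 3.68, 15.7% ± 5.66 and 20.4% ± 3.75 of its pair with Psmb6. All EC libraries thus stood above all TC libraries in each of the 3 shares. TCs and ECs were amplified with different numbers of cycles and quantified in separate tables, and no test was run between them. Within the libraries sorted on the same day, the log2 ratio of Psmb8 to Psmb5 differed from day 0 by −0.82 on day 1.5 and −0.14 on day 3.5, against −0.28 and −0.68 over all libraries (each sort day holds only 2 of the 4 day 0 mice, so sort day and mice cannot be told apart). The EC differences in this ratio also turned on single libraries: day 1.5 against day 0 ran from −0.82 to 0.05 over the alternatives, and day 3.5 against day 1.5 from −0.72 to 0.07, above 0 without day 1.5 replicate 2.

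Of the 42 other proteasome genes and 30 interferon-response genes, none was called between EC days by edgeR. For day 1.5 against day 0, 3 of the former and 10 of the latter had an unadjusted p under 0.05, beside 1422 of 17585 genes. For day 3.5 against day 1.5 the counts were 1 and 3, beside 798 genes. Day 3.5 against day 0 gave 3 and 5, beside 1541 genes. Libraries of 7 interferon-response genes did not overlap and were higher on day 1.5 than on day 0, beside 4.72% of all genes, and 6 were so on day 3.5, beside 4.86%. Lower than on day 0 without overlap was 1 on day 1.5, beside 2.77%, and none on day 3.5, beside 3.03%. It was Ifi35, at 342 to 424 CPM on day 0 and 221 to 271 CPM on day 1.5. The immunosubunits were not among the genes that separated the days, while Xaf1, picked here after its values were seen, was at 236 to 267 CPM on day 0, 399 to 427 CPM on day 1.5 and 477 to 838 CPM on day 3.5. Irf1 was at 267 ± 62.6, 158 ± 44.1 and 208 ± 19.1 CPM on days 0, 1.5 and 3.5 and Nlrc5 at 10.6 ± 5.60, 23.7 ± 7.25 and 8.18 ± 10.3 CPM. The 10 EC libraries gave other likenesses than the TC libraries: Mtmr3 (r = 0.894), Etfb (0.881), Zdhhc21 (0.864), Lmcd1 (0.854) and Nck1 (0.843) were the closest of 8780 genes, and Psmb10 and Psmb8 correlated at −0.03.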

How the data were processed

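Single cells were profiled by a modified SMART-Seq2 protocol in 96-well plates without molecular identifiers. Per the labels and the study's methods, the authors demultiplexed with bcl2fastq and quantified transcripts on GRCm38 with Salmon 0.7.2; the annotation release is not given in the sources used here. The deposited estimated counts per gene and cell are not normalized. The authors also deposited log10 values of scaled counts for filtered cells, used here only to identify those cells (2479 ECs and 1566 TCs); the 5375 cell names of the raw tables are unique. No per-sample columns were left out, and no doublet caller was run.

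Estimated counts of kept cells were summed per mouse and gate, rounded to whole numbers, filtered by filterByExpr, scaled by TMM and tested with edgeR 4.0.16's quasi-likelihood test (limma 3.58.1, R 4.3.3; Benjamini-Hochberg adjusted p of 0.05 over all genes), with DESeq2 1.42.0 as an alternative. The TC fit held the intravascular, extravascular and latent libraries and the proliferative pool; the EC fit held all 10 libraries. Fits were tested on simulated data. Levels, ratios and figures used Python 3.11.15, pandas 2.3.3, numpy 2.4.6 and matplotlib 3.10.9. Levels per kb used the length of the GENCODE M21 principal transcript. A cell had a read from 0.5 estimated counts. TC libraries held 31.9 to 163 M counts and EC libraries 75.6 to 129.5 M, in a median of 5721 to 7145 and 1951 to 2973.5 genes per cell; amplified reads are not independent molecules. The p-values rest on the spread between the libraries of mice within a gate or day. The main TC fit did not pair the day 1.5 gates of a mouse, and no TC p-value covers differences between lanes.

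The members and the gene lists were chosen with earlier results of these data known. Named were the 8 members, list genes past the adjusted p (up to 6 per comparison), always Psmb11, Psme3, Psme4, Pomp, Irf1, Nlrc5 and the peptide loading genes, and the 5 genes outside the members whose mean log2(CPM + 1) correlated best with that of the immunosubunits, among genes with a mean of at least 10 CPM; 1 gene the rule names is not reported here. Intravascular and extravascular libraries with the same replicate number came from the same mouse according to the deposited annotation, which pairs them; their deviations from the group means correlated at 0.25, 0.076, 0.066 and −0.036 in m5 to m8 (6839 genes). Alternatives were DESeq2, RLE size factors, no filter, the mouse as a block, leaving out libraries, and leaving out cells above 5% mitochondrial reads or at 10 CPM or more of Ptprc.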

Additional observations from a re-analysis of the deposited data

Results flagged for a closer look

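In 4 of 44 groups of 4 libraries, 1 library stood far from the other 3, measured as its gap to the nearest library over the whole range; chance gives this in about 1 in 20 groups. For Psmb8 in extravascular TCs the value was 0.955, with replicate 3 at 72.3 CPM and the others at 101 to 102 CPM. For Psmb5 it was 0.900 in intravascular TCs (replicate 4 at 387 CPM, the highest at 439 CPM) and 0.913 in extravascular TCs (replicate 2 at 417 CPM, the lowest at 347 CPM). For Psmb7 in ECs of day 0 it was 0.936, with replicate 1 at 89.6 CPM and the lowest at 52.8 CPM.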

How the results depend on the processing

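None of the 6 TC differences in the 3 log2 ratios changed direction under the alternatives run, whereas 6 of the 9 between EC days did under at least 1 of them. Of the 162 values, 161 stayed within 1 SD, the exception being Psmb8 to Psmb5 in latent relative to extravascular TCs, 1.65 as the mean of per-cell CPM against 1.85. Of the members' levels, 500 values stayed within that bound and 9 did not; 7 of the 9 were means of per-cell CPM. Counts of calls moved more, and the cause was not tested. Between extravascular and intravascular TCs the 183 genes became 1432 with DESeq2, 34 with the mouse as a replicate block and 63 without the block on the same 8 libraries, and ran from 8 (without extravascular replicate 4 or intravascular replicate 4) to 518 (without extravascular replicate 1) on leaving out single libraries. Other proteasome genes went from 1 to 7 with DESeq2, 0 with the block, 2 without cells above 5% mitochondrial reads and 0 to 6 without single libraries, and interferon-response genes from 1 to 2 with DESeq2, 0 with or without the block on the 8 libraries, and 0 to 1 without single libraries. Between latent and extravascular TCs the 1650 genes became 2910 with DESeq2, 816 without latent replicates 1 and 4 (chosen after seeing the data) and 1189 to 1465 without single libraries. There the 3 other proteasome genes became 5 with DESeq2 and 2 to 3 without single libraries, and the 5 interferon-response genes 11 with DESeq2, 2 without latent replicates 1 and 4, and 3 to 13 without single libraries. In ECs, where edgeR called 0 genes, DESeq2 called 374 (day 1.5 against day 0), 137 (day 3.5 against day 1.5) and 506 (day 3.5 against day 0), of which 2, 0 and 3 were interferon-response genes; 1 gene was called on day 1.5 without cells above 5% mitochondrial reads, and 0 to 1 against day 0 without single libraries, of which 0 to 1 were interferon-response genes on day 3.5. No paired analysis was possible for latent against extravascular TCs or between EC days because the mice differed. Splitting the proliferative gate into 4 libraries was not run, since its cells carry no replicate number. Depth limits the least abundant genes most: Psmb9 was the lowest member in TCs, and Irf9, Tap1 and Nlrc5 were lower still.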
